A study of Mus musculus with 6 samples.

Results

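These genes carry the symbols of proteins of the mitochondrial ribosome. They were taken as every row of the deposited expression tables whose symbol begins with Mrpl (large subunit) or Mrps (small subunit) and a number, which gave 75 genes, 46 large and 29 small, out of 23179 rows. Their RNA levels were compared between pancreatic islets of Ffar3 knockout (KO, Ffar3-/-) and wild-type (WT, wildtype) mice. Ffar3 encodes a cell surface receptor for short-chain fatty acids. All mice were C57BL/6J males of 10 to 14 weeks, and each group had 3 libraries, described as biological replicates, each made from total RNA of islets picked from the pooled isolation of 2 pancreata. The labels name no promoter or cell type that limits the deletion.

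The mitochondrial ribosome sits at the inner mitochondrial membrane and translates the small set of proteins that mitochondrial DNA encodes, all of them parts of the respiratory chain and ATP synthase. Its RNA comes from mitochondrial DNA, while every one of its proteins is encoded in the nucleus, made on cytosolic ribosomes and imported. Some of these proteins descend from bacterial ribosomal proteins and others are found only in mitochondria. In beta cells, ATP made by the respiratory chain links glucose to insulin release.

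Levels are in FPKM, a unit that divides the fragments of a gene by the length of its transcripts and by a measure of library size. Differences are KO minus WT in log2(FPKM + 1), with a standard error (SE), and were tested with limma across the 11669 genes whose mean over the libraries reached 1 FPKM. "Rose" and "fell" are used only of genes with a Benjamini-Hochberg adjusted p under 0.05. The targeted gene, Ffar3, had 4.69, 5.26 and 6.68 FPKM in WT and 0.105 FPKM in KO replicate 3, and was listed at 0 in the other KO libraries. The libraries differed in exocrine content. The 21 acinar markers, which encode digestive enzymes and related secreted proteins, took 6.52 to 9.72% of the summed FPKM in the WT libraries and 6.27% in KO replicate 1, but 37.5% in KO replicate 2 and 52.7% in KO replicate 3. The mean log2(FPKM + 1) of these markers ranged from 9.11 to 9.47 among the WT libraries, against 8.93, 11.96 and 12.98 for the KO libraries in order, and 1 of the 21 rose. Summed FPKM of 5 alpha cell markers lay between 19830 and 24035 in WT and at 13579, 9278 and 7203 in KO, with 1 of them lower. For 6 lymphocyte markers the sums lay between 7.55 and 8.13 in WT and at 26.5, 49.9 and 8.83 in KO, with 1 of them higher. For 10 beta cell markers the sums lay between 37151 and 38915 in WT and at 35819, 72923 and 81201 in KO, with 3 of them lower, 0 higher and Ins2 listed at 0 in every library. For 2 delta cell markers the sums lay between 4999 and 5262 in WT and at 4544, 2672 and 2524 in KO, with 1 of them lower. The part of these differences in the results that follow was not tested. For some genes, values for KO replicate 1 alone are given. That library lacked the high acinar share of the other KO libraries. Its alpha and delta sums were still below all WT libraries and its lymphocyte sum above them, so it does not test the part of cell content. In such bulk samples, fewer cells of a type and less RNA per cell cannot be told apart.

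All 75 genes passed the expression filter, with means over the 6 libraries from 2.79 FPKM (Mrpl19) to 66.0 FPKM (Mrps21). Of these, 14 passed the test, or 18.7%, against 39.9% of all tested genes. The 2 that rose were Mrpl18 and Mrpl45, and the 12 that fell were Mrps12, Mrps33, Mrpl41, Mrpl36, Mrpl42, Mrpl11, Mrps21, Mrps15, Mrpl2, Mrpl27, Mrps14 and Mrps25. Over all tested genes, 20.3% rose and 19.6% fell. The median difference of the 75 was -0.07, beside -0.01 over all tested genes, and 46 of the 75 lay below 0. Only Mrps12 and Mrpl18 differed by 0.5 log2 or more, which is 2.67% of the 75 against 17% of all tested genes. The other 73 lay within 0.5 log2 of the WT level. The KO and WT values did not overlap for 29 of the 75, or 38.7%, with 4 higher in KO and 25 lower; over all tested genes the groups did not overlap for 56.3%, with 27.8% higher and 28.5% lower. The genes were measured with a median coefficient of variation of 4.68% among the WT libraries and 8% among the KO libraries.

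**Figure D1:**
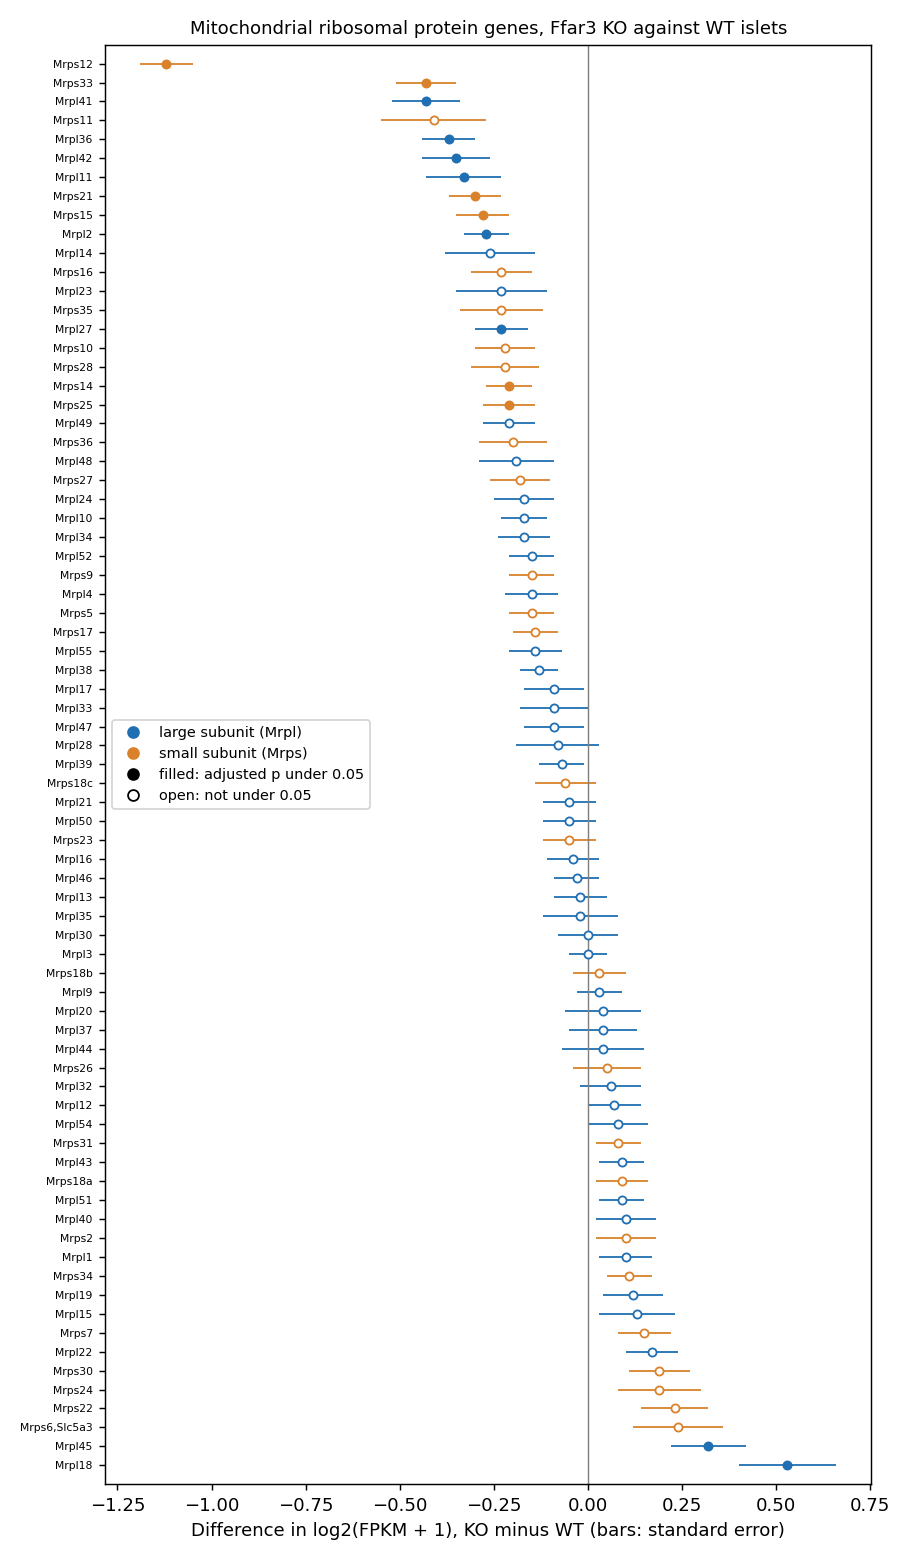
Difference in log2(FPKM + 1), KO minus WT, of the 75 mitochondrial ribosomal protein genes in order (points, blue for the large and orange for the small subunit; bars, SE; filled points, adjusted p under 0.05; 3 libraries per group). Mrps12 lies alone at -1.12, and the other genes lie between -0.43 and 0.53.

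Most of these changes were modest in size, and how many passed varied with the library left out, as it did over all tested genes. With all libraries 39.9% of all tested genes passed, against 21.3% without WT replicate 1 and 21.5% without WT replicate 3. The share was 49.1% without KO replicate 1 and 29.7% without KO replicate 2. It was 23.1% with the acinar level of each library as a covariate. Without WT replicate 1, 5 of the 14 still passed (Mrps12, Mrps33, Mrpl41, Mrpl36 and Mrpl2), and without WT replicate 3 it was 6. Without KO replicate 1, 13 of the 14 passed together with 14 further genes, and without KO replicate 2 it was 7 and 1. With the acinar level of each library as a covariate, 6 of the 14 passed: Mrps12, Mrps33, Mrpl41, Mrpl36, Mrpl42 and Mrps15. In a fit of KO replicate 1 alone against WT, 6 passed as well: Mrps12, Mrps33, Mrpl36, Mrpl42, Mrpl11 and Mrps15.

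The order of the 75 genes by level changed little between libraries. Spearman's rho over the 75 genes was between 0.959 (WT replicate 1 with KO replicate 3) and 0.993 (WT replicates 2 and 3), as a description across genes. Individual genes moved by up to 11 places in the order of group means, the most for Mrpl18, which ranked 67, 64 and 63 of the 75 in WT and 56, 54 and 48 in KO. Mrps12 lost the top place. It had the highest FPKM of the 75 in each of the 3 WT libraries and ranked 6, 8 and 10 of the 75 in KO replicates 1, 2 and 3.

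Mrps12, the counterpart of the bacterial protein S12 at the decoding centre of the small subunit, changed most. Its level was 81.4, 83.4 and 85.6 FPKM in the WT libraries and 41.2, 37.0 and 35.5 FPKM in the KO libraries. All 3 KO libraries were far below every WT library, including KO replicate 1, which had the lowest acinar level of the 6. The mean fell from 83.5 ± 2.09 to 37.9 ± 2.93 FPKM (SD, n = 3 each), 54.6% lower, with a log2 difference of -1.12 (SE 0.07, adjusted p = 0.00032 in limma). Among the 11669 tested genes, 74 (0.634%) had a larger fall and 23 had a smaller p. The exact two-sided permutation test gave p = 0.1, the smallest that 3 against 3 libraries allow. Mrps12 made up 11.5, 11.8 and 11.9% of the summed FPKM of the small-subunit genes in WT and 6.43, 6.29 and 5.66% in KO.

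Mrps12 lies on chromosome 7 (GRCm38, chr7:28739641-28741820, minus strand), 2.11 Mb from Ffar3 (chr7:30854330-30856178, minus strand). The effect of the lost receptor and that of the targeted chromosome segment around it cannot be told apart in this design. Within 1 Mb of Ffar3, which was itself left out, 29 of 53 tested genes passed (54.7%), within 3 Mb 45 of 93 (48.4%, 20 higher and 25 lower) and within 5 Mb 58 of 133 (43.6%), beside the 39.9% of all tested genes. The other 5 Mrpl and Mrps genes of chromosome 7 lie 47.9 to 112 Mb from Ffar3, and none of them passed. Mrps11 and Mrpl46 lie 47.9 Mb away and differed by -0.41 and -0.03. Mrpl48, Mrpl17 and Mrpl23, at 69.7, 74.9 and 112 Mb, differed by -0.19, -0.09 and -0.23.

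Directly beside Mrps12, on the opposite strand, lies Sars2 (chr7:28741992-28753871, plus strand), which encodes the mitochondrial seryl-tRNA synthetase, the enzyme that charges mitochondrial tRNA with serine. Their annotated starts are 172 bases apart, so both genes start from a shared stretch of DNA. Sars2 was at 4.73, 4.33 and 4.05 FPKM in WT and at 3.11, 3.00 and 3.02 FPKM in KO. The groups did not overlap. Sars2 fell by 0.41 on the log2 scale (SE 0.08, limma adjusted p = 0.007), from 4.37 ± 0.342 to 3.04 ± 0.0566 FPKM (SD, n = 3 each). Of the 8 tested neighbours within 100 kb of Mrps12, Sars2 was the 1 that fell and Hnrnpl, which encodes an RNA-binding regulator of splicing, the 1 that rose. Hnrnpl, 66.7 kb away, was at 67.8, 69.1 and 72.4 FPKM in WT and 89.2, 91.1 and 83.5 FPKM in KO (difference 0.33, adjusted p = 0.0068 in limma). Fbxo17, 1.5 kb beyond the other end of Mrps12, was at 3.87 ± 0.553 FPKM in WT and 3.41 ± 0.232 FPKM in KO (SD, n = 3; difference -0.14, limma adjusted p = 0.31). Whether the authors counted by strand is not stated in the labels. The gene bodies of Mrps12 and Sars2 do not overlap in this annotation.

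Promoter windows are shown for Mrps12 and for 3 other genes that passed the test, Mrps33, Mrpl36 and Mrpl18, picked because each holds a match to a motif that was searched. The windows of Mrpl41 and Mrpl45, which also passed, hold none of these motifs and are not shown. They run from 250 bases before to 50 bases after the annotated start (RefSeq, GRCm38.p6), are written 5′ to 3′ on the gene's strand, and have the motif matches in capitals. The Mrps12 window, chr7:28741772-28742071 on the minus strand, shares 246 of its 300 bases with that of Sars2. It has 1 match to the ETS core CCGGAAG, the core of sites bound by the GA-binding protein GABP. The windows of Mrps33 (chr6:39810887-39811186, minus strand) and Mrpl18 (chr17:12916042-12916341, minus strand) also hold 1 match to this core each, in Mrps33 on the other strand. The window of Mrpl36 (chr13:73330759-73331058, plus strand) holds 1 E-box CACGTG, a site type bound by Myc and other basic helix-loop-helix proteins. It follows a RefSeq start at chr13:73331009, 2496 bases downstream of the outermost start of Mrpl36 in GENCODE (chr13:73328513).
Mrps12: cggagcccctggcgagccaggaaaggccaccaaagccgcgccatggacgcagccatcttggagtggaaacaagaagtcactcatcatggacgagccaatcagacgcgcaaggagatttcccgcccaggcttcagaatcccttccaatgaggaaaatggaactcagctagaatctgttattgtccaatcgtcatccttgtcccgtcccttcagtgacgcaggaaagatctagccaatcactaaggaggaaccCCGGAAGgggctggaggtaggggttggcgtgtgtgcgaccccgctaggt
Mrps33: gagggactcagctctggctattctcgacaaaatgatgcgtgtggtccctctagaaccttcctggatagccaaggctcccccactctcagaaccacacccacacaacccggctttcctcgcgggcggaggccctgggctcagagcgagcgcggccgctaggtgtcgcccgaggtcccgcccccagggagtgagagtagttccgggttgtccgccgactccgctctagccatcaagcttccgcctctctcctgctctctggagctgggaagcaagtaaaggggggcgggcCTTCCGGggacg
Mrpl36: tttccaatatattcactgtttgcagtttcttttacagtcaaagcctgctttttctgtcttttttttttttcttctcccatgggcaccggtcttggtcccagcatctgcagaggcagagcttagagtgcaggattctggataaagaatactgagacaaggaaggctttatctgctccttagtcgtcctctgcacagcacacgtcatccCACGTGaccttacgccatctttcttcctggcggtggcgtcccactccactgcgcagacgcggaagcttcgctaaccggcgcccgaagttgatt
Mrpl18: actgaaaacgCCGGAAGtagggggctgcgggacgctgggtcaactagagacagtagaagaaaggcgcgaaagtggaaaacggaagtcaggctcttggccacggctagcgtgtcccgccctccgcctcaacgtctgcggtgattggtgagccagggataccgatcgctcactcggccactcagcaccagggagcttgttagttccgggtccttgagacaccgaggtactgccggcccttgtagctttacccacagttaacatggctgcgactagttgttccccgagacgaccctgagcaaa
Mrps12 and Mrps33 fell and Mrpl18 rose, and all 3 windows have the ETS core.

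Short motifs of known regulators of nuclear genes for mitochondria were searched as exact letters on both strands: GCATGCG (the core of NRF1 sites), CCGGAAG (ETS, GABP), ATGGCGG (YY1) and CACGTG (E-box). RefSeq windows were at hand for 66 of the 75 genes, with 72 windows in all, as some genes have several starts. Mrpl4, Mrpl13, Mrpl15, Mrpl19, Mrpl38, Mrpl54, Mrps28, Mrps34 and Mrps35 were not matched. The ETS core was in 31.9% of the 72 windows, against 8.86% of all 32851 windows of the same length, and its share was 26.7% for the large and 40.7% for the small subunit. The YY1 core was in 16.7% (all windows 4.05%), the NRF1 core in 11.1% (3.58%) and the E-box in 9.72% (7.15%). No NRF1 or ETS core was in 45 of the 72 windows. Genes that passed the test had 16 windows, of which 5 held the ETS core (31.2%), 4 the E-box (25%), 1 the YY1 core (6.25%) and 0 the NRF1 core. The 56 windows of the other genes held them in 32.1%, 5.36%, 19.6% and 14.3%, in the same order. These shares are descriptions, and windows of 1 gene share bases, as do those of head-to-head neighbours.

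Some of these genes start head to head with another gene. How often this occurs over all genes was not counted. For 25 of the 75, the annotation places another gene of the tables on the opposite strand with its start within 1000 bases (an overlap of up to 500 bases was allowed). Both genes were tested for 23 of them. The 2 genes differed in the same direction in 13 and in opposite directions in 10, counting the pair of Mrps11 and Mrpl46 from each side. Both genes passed the test in 1 pair, Mrps12 and Sars2. For the other 4 genes that fell and have such a neighbour, the neighbour did not pass. Next to the outermost GENCODE start of Mrpl36, which is not the start of the window shown, lies Ndufs6, which encodes a subunit of respiratory complex I and differed by 0.03 (limma adjusted p = 0.86). The neighbours of Mrpl2, Mrpl41 and Mrpl27 are Klc4, Pnpla7 and Eme1, with differences of -0.03, 0.08 and -0.05. Among the 23, the neighbour passed in 8 and the gene of the 75 in 5, beside 39.9% of all tested genes. Apart from Sars2, the neighbours that passed each lie beside a gene that did not pass. Lrrc46 and Cyb5rl fell, and Zfp189, Mitd1, Ppp1r10, Ncapd2 and Gga3 rose. Gga3, beside Mrps7, rose by 0.52 (limma adjusted p = 0.0063).

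**Figure D2:**
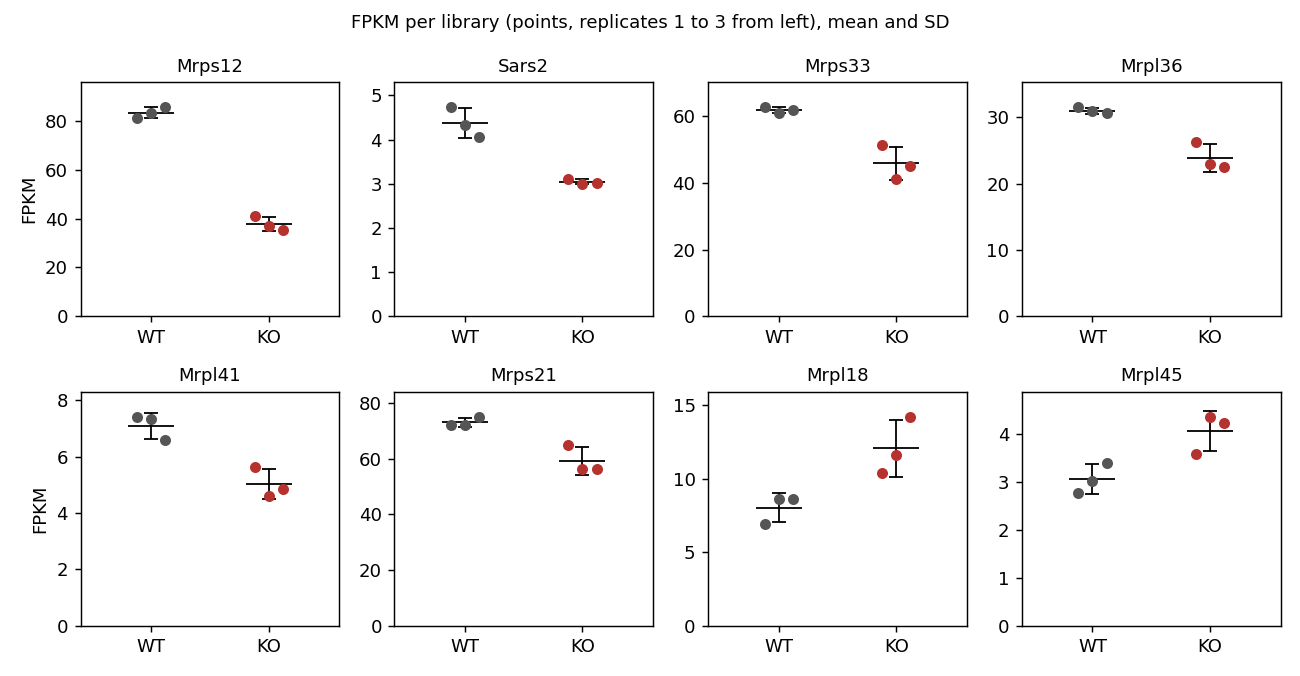
FPKM in each library (points, replicates 1 to 3 from left; horizontal bars, group mean; error bars, SD, n = 3) of Mrps12, its neighbour Sars2 and 6 further mitochondrial ribosomal protein genes, on axes that start at 0. The KO points lie below all WT points for Mrps12, Sars2, Mrps33, Mrpl36, Mrpl41 and Mrps21, and above them for Mrpl18 and Mrpl45.

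In the small subunit, 6 of 29 genes fell (20.7%) and 0 rose, beside 19.6% and 20.3% of all tested genes. The median difference was -0.15. The KO and WT values of 16 of the 29 did not overlap (55.2%), 14 lower and 2 higher in KO, next to 56.3% of all tested genes. Mrps33, a protein found in mitochondrial and not in bacterial ribosomes, was at 62.7, 61.1 and 61.9 FPKM in WT and at 51.3, 41.3 and 45.0 FPKM in KO. KO replicate 1 was the highest of the KO libraries and still below every WT library. Mrps33 fell by 0.43 (SE 0.08, limma adjusted p = 0.0079), a mean of 25.9% lower.

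Mrps21 and Mrps15, counterparts of bacterial S21 and S15, belong to the platform, a part of the small subunit. Mrps21 was at 72.1, 71.9 and 75.0 FPKM in WT and 64.9, 56.2 and 56.2 FPKM in KO, and fell by 0.30 (SE 0.07, limma adjusted p = 0.016). Mrps15 was at 17.7, 16.8 and 18.4 FPKM in WT and 13.2, 14.3 and 15.5 FPKM in KO, and fell by 0.28 (SE 0.07, limma adjusted p = 0.021). Neither gene's groups overlapped. Without WT replicate 1 the adjusted p of Mrps21 was 0.057 and without WT replicate 3 it was 0.067. With the acinar covariate Mrps21 differed by -0.20 (adjusted p = 0.07 in limma), and in KO replicate 1 alone by -0.17 (0.084). For Mrps15 it was 0.074 without WT replicate 1, 0.085 without WT replicate 3 and 0.053 without KO replicate 2.

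Mrps14, in the head of the subunit, was at 18.2, 16.7 and 17.1 FPKM in WT and 14.9, 14.0 and 15.5 FPKM in KO, and fell by 0.21 (SE 0.06, limma adjusted p = 0.031). Mrps25, named after its values were seen, was at 6.49, 6.85 and 7.42 FPKM in WT and 5.81, 6.05 and 5.65 FPKM in KO, and fell by 0.21 (SE 0.07, limma adjusted p = 0.045). The groups did not overlap for either gene, but each call was lost in several fits that left out a library. The adjusted p of Mrps14 was 0.12 without WT replicate 1, 0.057 without WT replicate 2, 0.088 without WT replicate 3 and 0.078 without KO replicate 2. That of Mrps25 was 0.071, 0.1 and 0.17 without WT replicates 1, 2 and 3 and 0.064, 0.065 and 0.097 without KO replicates 1, 2 and 3.

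Mrps11, a platform protein and counterpart of bacterial S11, had a difference as large as those that passed but a wider spread. It was at 13.4, 13.4 and 13.2 FPKM in WT and 12.5, 7.83 and 9.52 FPKM in KO. KO replicate 1 lay just under the WT values, and the other KO libraries lay well below. The difference was -0.41 (SE 0.14, limma adjusted p = 0.057), and without KO replicate 1 it was -0.57 with an adjusted p of 0.0027. The highest differences in the small subunit, named after their values were seen, were 0.24 for Mrps6, whose row is joined with the transporter gene Slc5a3, and 0.23 for Mrps22 (limma adjusted p = 0.14 and 0.081).

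In the large subunit, 6 of 46 genes fell and 2 rose, which is 17.4% in all, beside 39.9% of all tested genes. The median difference was -0.05. The KO and WT values did not overlap for 13 of the 46 (28.3%), 11 lower and 2 higher in KO. Over all tested genes 56.3% did not overlap. Mrpl36, the counterpart of the smallest bacterial large-subunit protein, was at 31.5, 30.9 and 30.6 FPKM in WT and 26.3, 22.9 and 22.5 FPKM in KO. It fell by 0.37 (SE 0.07, limma adjusted p = 0.0076), with all KO libraries below all WT libraries. Mrpl41, a protein specific to mitochondria, was at 7.42, 7.33 and 6.58 FPKM in WT and 5.64, 4.59 and 4.87 FPKM in KO. It fell by 0.43 (SE 0.09, limma adjusted p = 0.0094), again without overlap. Mrpl42, also specific to mitochondria, was at 40.5, 35.3 and 36.8 FPKM in WT and 28.4, 26.8 and 32.6 FPKM in KO, and fell by 0.35 (SE 0.09, limma adjusted p = 0.019). All KO libraries were below all WT libraries, with KO replicate 3 the closest. The adjusted p of Mrpl42 was 0.077 without WT replicate 1, 0.061 without WT replicate 3 and 0.054 without KO replicate 2.

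The other 3 that fell have bacterial counterparts. Mrpl2, which lies near the peptidyl transferase centre, where peptide bonds form, was at 29.2, 29.0 and 28.3 FPKM in WT and 24.9, 22.6 and 23.7 FPKM in KO, and fell by 0.27 (SE 0.06, limma adjusted p = 0.0098). Mrpl27, which also reaches towards that centre, was at 28.7, 27.7 and 28.3 FPKM in WT and 24.3, 21.8 and 25.9 FPKM in KO, and fell by 0.23 (SE 0.07, limma adjusted p = 0.039). Mrpl11, at the base of the stalk that recruits translation factors, was at 5.78, 6.71 and 6.5 FPKM in WT and 4.72, 4.28 and 5.49 FPKM in KO, and fell by 0.33 (SE 0.10, limma adjusted p = 0.031). None of these 3 overlapped between the groups, although KO replicate 3 of Mrpl11 was close to WT replicate 1. The adjusted p of Mrpl27 was 0.12, 0.082 and 0.11 without WT replicates 1, 2 and 3 and 0.076 without KO replicate 2. That of Mrpl11 was 0.053, 0.1 and 0.11 without WT replicates 1, 2 and 3 and 0.082 without KO replicate 2, and it was 0.053 in the fit with the replicate number as a block.

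Mrpl18 and Mrpl45 rose. Mrpl18, a protein of the central protuberance at the top of the large subunit, was at 6.93, 8.58 and 8.59 FPKM in WT and 10.4, 11.6 and 14.2 FPKM in KO. All KO libraries were above all WT libraries, with KO replicate 3 the highest. The mean was 8.03 ± 0.953 in WT and 12 ± 1.95 FPKM in KO (SD, n = 3), a fold of 1.5 and a log2 difference of 0.53 (SE 0.13, limma adjusted p = 0.017). Mrpl45, which lies at the exit of the polypeptide tunnel and attaches the ribosome to the inner membrane, was at 2.77, 3.01 and 3.38 FPKM in WT and 3.58, 4.35 and 4.23 FPKM in KO. It rose by 0.32 (SE 0.10, limma adjusted p = 0.036), a fold of 1.33. Neither gene passed in the fit with the acinar level as a covariate, which called 23.1% of all tested genes, beside 39.9% without it. There the differences were 0.36 and 0.21 in order, with limma adjusted p of 0.087 and 0.19. In KO replicate 1 alone they were 0.34 and 0.18. The part of the acinar level in these rises was not tested. The adjusted p of Mrpl18 was 0.062 without WT replicate 1. That of Mrpl45 was 0.13, 0.097 and 0.056 without WT replicates 1, 2 and 3 and 0.099 and 0.082 without KO replicates 2 and 3.

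The most abundant genes besides these did not pass. Mrpl52, the second most abundant by mean, was at 62.4, 64.7 and 69.9 FPKM in WT and 56.8, 59.4 and 60.4 FPKM in KO. Its groups did not overlap, yet the difference was -0.15 (limma adjusted p = 0.087). Mrpl33 was at 50.5, 51.5 and 50.1 FPKM in WT and 55.1, 44.0 and 44.8 FPKM in KO, so that KO replicate 1 was the highest library of the 6 and the other KO libraries were the lowest. Mrpl20, whose bacterial counterpart acts early in assembly of the large subunit, was at 40.6, 40.3 and 41.5 FPKM in WT and 40.5, 37.4 and 49.0 FPKM in KO (difference 0.04). The genes of lowest mean, Mrpl19 at 2.79 and Mrpl35 at 3.11 FPKM, also named after their values were seen, differed by 0.12 and -0.02 and did not pass.

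Compared per library, both subunits were somewhat lower in KO. The summed FPKM of the 46 large-subunit genes was 937, 918 and 941 in WT and 889, 842 and 905 in KO. That of the 29 small-subunit genes was 707, 708 and 719 in WT and 641, 589 and 628 in KO. Every KO sum lay below every WT sum in both subunits. The ratio of the small to the large sum was 0.754, 0.771 and 0.764 in WT and 0.721, 0.699 and 0.694 in KO, so the groups did not overlap there either. Without Mrps12, the ratio was 0.667, 0.68 and 0.673 in WT and 0.675, 0.655 and 0.654 in KO. The groups then overlapped, since KO replicate 1 lay between WT values, so the separation of this ratio rests on Mrps12. Sums are led by the few abundant genes, and medians give each gene the same weight. The median deviation from the WT mean over the large-subunit genes was -0.03, -0.14 and -0.01 log2 in KO replicates 1, 2 and 3, and over the small-subunit genes it was -0.08, -0.12 and -0.08. Over all tested genes it was -0.01, -0.02 and -0.01. KO replicate 2 was thus the lowest library for both subunits, and in it the medians of the 2 subunits were nearly the same. It had 48 of the 75 genes below all WT libraries, against 34 in KO replicate 1 and 37 in KO replicate 3. KO replicate 3 had 27 genes above all WT libraries, against 16 and 15 in the other KO libraries. The same counts were not made over all tested genes, so these have no background and are not read as a trait of the 75. Whether the 2 subunits differ in their response was not tested.

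**Figure D3:**
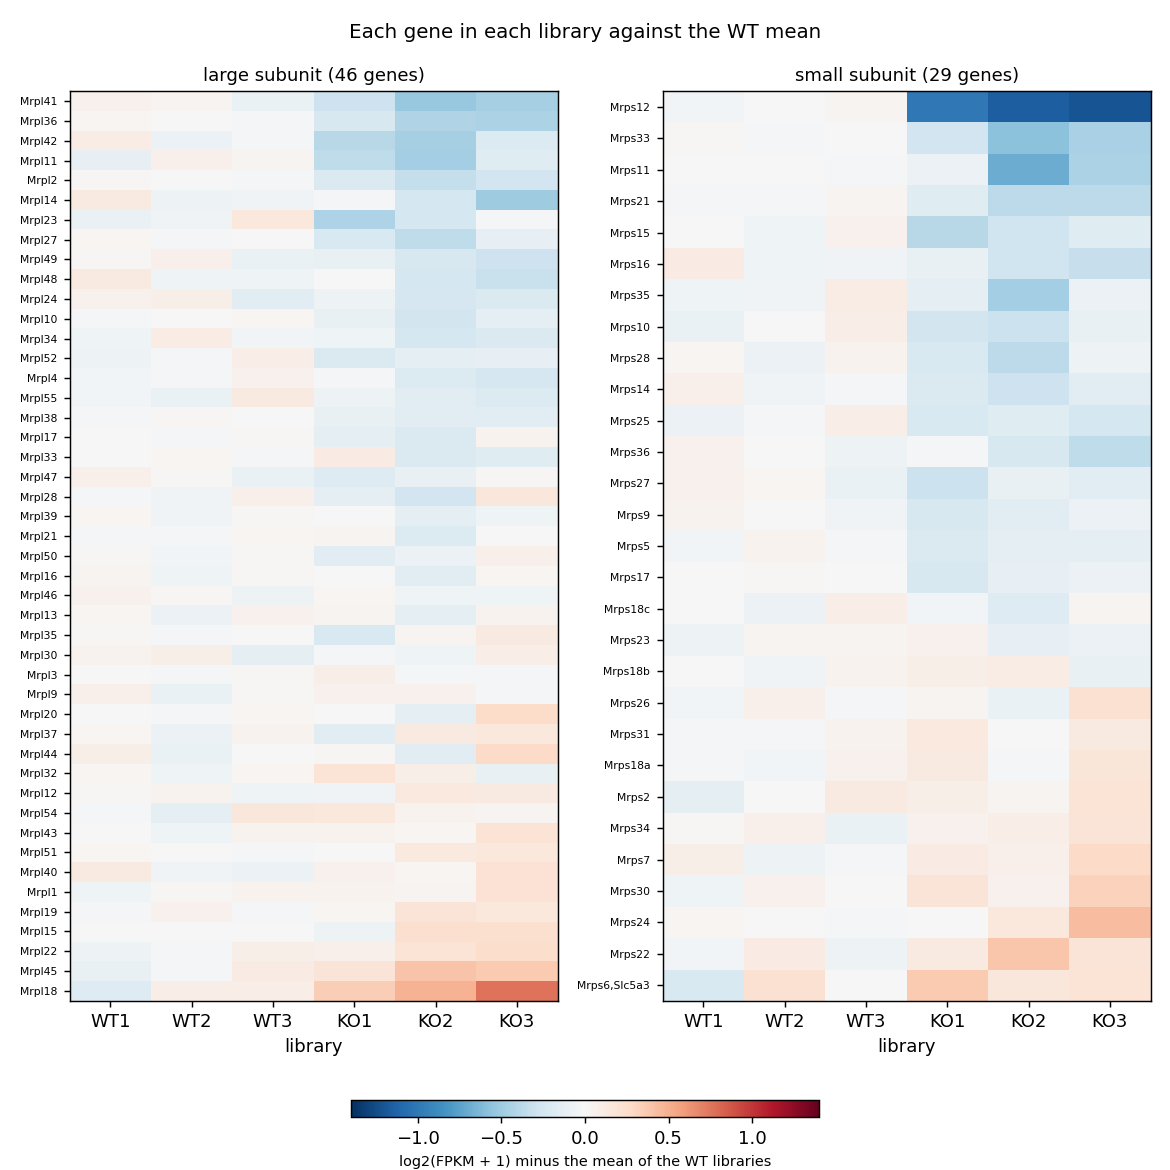
Each gene's log2(FPKM + 1) minus its mean over the WT libraries, for the 46 large-subunit genes (left) and the 29 small-subunit genes (right), in the 6 libraries (columns; blue lower, red higher, same colour scale). Mrps12 is the darkest row in all 3 KO libraries, and KO replicate 2 has the most rows below the WT libraries.

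Grouping by structure rather than by symbol gave like counts. Over all tested genes 19.6% fell and 20.3% rose. Mrps18a and Mrps30 sit in the large subunit despite their names. With them moved there, 2 of 48 large-subunit genes rose and 6 fell, and 0 of 27 small-subunit genes rose and 6 fell. Mrps36 was kept among the 27 by its symbol alone. The next counts take the subunits by symbol again. Among genes listed with a bacterial counterpart, 4 of 16 in the small subunit fell (median -0.18) and 4 of 30 in the large subunit fell while 1 rose (median -0.07). Among those not so listed, 2 of 13 in the small subunit fell (median 0.03), and 2 of 16 in the large subunit fell while 1 rose (median -0.04). These 13 include Mrps18a and Mrps18b, at 0.09 and 0.03, since only Mrps18c was listed as the counterpart of bacterial S18. They also include Mrps30, at 0.19, which like Mrps18a sits in the large subunit. By place, 2 of 5 platform genes fell (median -0.28), as did 1 of 5 head genes (-0.15), 1 of 5 genes of the stalk and its base (0.07) and 0 of 6 genes around the exit tunnel, where Mrpl45 rose (-0.09). In the central protuberance 1 of 8 rose, Mrpl18, and 1 fell, Mrpl27 (-0.13). The 3 paralogs of bacterial S18 did not pass: Mrps18a was at 25.2 to 27.0 FPKM in WT and 25.6 to 29.2 FPKM in KO, Mrps18b (named after its values were seen) at 25.2 to 27.0 and 24.2 to 28.1 FPKM, and Mrps18c at 31.9 to 36.3 and 29.8 to 34.8 FPKM. All 3 overlapped between the groups.

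The genes that fell were mostly those with short transcripts, in a comparison chosen after the values were seen. Length was taken as the median of the annotated protein-coding transcripts of a gene. Of the 25 shortest genes (405 to 803 bases) 8 fell, 0 rose and the median difference was -0.17. Of the next 25 (815 to 1411 bases) 2 fell, 1 rose and the median was -0.08. Of the 25 longest (1418 to 6073 bases) 2 fell, 1 rose and the median was 0.04. Over all tested genes, of any length, 19.6% fell and 20.3% rose. The share that fell among short genes of the whole tested set was not counted. Spearman's rho between length and the difference was 0.37 across the 75 genes, 0.51 across the 46 large-subunit genes and 0.18 across the 29 small-subunit genes, and 0.11 across the 10301 tested genes with a length. Between mean FPKM and the difference it was -0.24, -0.32, -0.19 and -0.03 in the same order, so level also went with the difference among the 75. Genes are not independent replicates, the points share the 6 libraries, and FPKM itself divides by length. The part of transcript length in the differences was not tested.

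The 7 listed further proteins of the same ribosome carry other names. Of these, 2 fell (28.6%) and 0 rose (median -0.09), beside 19.6% and 20.3% of all tested genes. When WT replicate 1, WT replicate 3 or KO replicate 2 was left out, 0 of the 7 passed. Gadd45gip1, which encodes a large-subunit protein, fell from 15.7 ± 1.23 to 12.8 ± 1.21 FPKM (difference -0.28, limma adjusted p = 0.038), and Chchd1, which encodes a small-subunit protein, from 32.4 ± 2.77 to 26.5 ± 2.44 FPKM (-0.28, limma adjusted p = 0.043; SD, n = 3 each). Gadd45gip1 differed by -0.20 with the acinar covariate (adjusted p = 0.19 in limma) and by -0.15 in KO replicate 1 alone (0.27). It also missed the threshold with equal sums (0.068), without a filter (0.06) and with the replicate block (0.051), and Chchd1 did so without a filter (0.066). Both calls were also lost in several fits that left out a library. The adjusted p of Gadd45gip1 was 0.086, 0.065 and 0.13 without WT replicates 1, 2 and 3 and 0.098 and 0.073 without KO replicates 2 and 3. That of Chchd1 was 0.13 and 0.15 without WT replicates 1 and 3 and 0.077 and 0.093 without KO replicates 1 and 2.

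Of the 13 mitochondrial translation factors, 4 fell (30.8%) and 0 rose, beside 19.6% and 20.3% of all tested genes. Their median was -0.10. With the acinar covariate, with equal sums, in KO replicate 1 alone, and without WT replicate 1 or 3, 2 fell and 0 rose. Mtrf1, a release factor of the mitochondrial ribosome, was at 2.26, 2.16 and 2.28 FPKM in WT and 1.41, 1.28 and 1.23 FPKM in KO, and fell by 0.49 (SE 0.09, limma adjusted p = 0.0061). Mtif2, the initiation factor that places the first tRNA, was at 7.79, 7.65 and 7.68 FPKM in WT and 6.01, 5.30 and 6.02 FPKM in KO, and fell by 0.36 (SE 0.07, limma adjusted p = 0.0069). The groups were well apart for both genes. Gfm2, which splits the ribosome for reuse, and Tsfm, which recharges the elongation factor Tufm, fell by 0.24 and 0.34 (limma adjusted p = 0.02 and 0.025). Without WT replicate 1 both had an adjusted p of 0.087, and without WT replicate 3 they had 0.069 and 0.09. Tsfm had 0.054 without WT replicate 2. With the acinar covariate the differences of Gfm2 and Tsfm were -0.20 and -0.22 (adjusted p = 0.097 and 0.14), and in KO replicate 1 alone also -0.20 and -0.22 (0.12 and 0.084). With equal sums their adjusted p was 0.065 and 0.066.

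Genes for assembly of the ribosome and modification of its RNA went both ways, with 4 of 23 higher, 3 lower and a median of -0.02. Those called made up 30.4% of this list, beside 39.9% of all tested genes. With the acinar covariate and with equal sums 1 was higher and 3 lower, and in KO replicate 1 alone 1 was higher and 4 lower. Without WT replicate 1, 1 was higher and 2 lower, and without WT replicate 2, 2 and 2. Mtg1, a GTPase of large-subunit assembly, was at 9.16, 8.93 and 9.27 FPKM in WT and 5.43, 5.79 and 6.83 FPKM in KO, and fell by 0.53 (SE 0.08, limma adjusted p = 0.0041). Gtpbp5, another such GTPase, fell from 7.56 ± 0.474 to 5.39 ± 0.352 FPKM (-0.42, limma adjusted p = 0.0059; SD, n = 3). Rpusd4, a pseudouridine synthase that acts on the large ribosomal RNA, was at 5.15, 5.06 and 5.24 FPKM in WT and 6.66, 7.12 and 8.11 FPKM in KO, and rose by 0.43 (SE 0.08, limma adjusted p = 0.0069). Ddx28, an RNA helicase of large-subunit assembly, rose by 0.37 (limma adjusted p = 0.018), with an adjusted p of 0.07 without WT replicate 1. Genes whose products act on the large subunit thus went both ways. For Ddx28 the adjusted p was also 0.063 when WT replicate 2 was left out and 0.05 when KO replicate 2 was. It differed by 0.26 with the acinar covariate (0.094) and with equal sums (0.1), and by 0.22 in KO replicate 1 alone (0.15).

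Of 16 genes for transcription of mitochondrial DNA and processing of its RNA, 3 rose and 5 fell, with a median of -0.12. Those called made up 50% of this list, beside 39.9% of all tested genes. With the acinar covariate, and also without WT replicate 2, 1 rose and 1 fell. In KO replicate 1 alone 2 rose and 2 fell, without WT replicate 1 or 3 1 rose and 2 fell, without KO replicate 2 1 rose and 5 fell, and with equal sums 1 rose and 4 fell. Tfb2m, a transcription factor of mitochondrial DNA, was at 8.77, 9.49 and 8.95 FPKM in WT and 12.2, 11.8 and 14.2 FPKM in KO, and rose by 0.44 (SE 0.08, limma adjusted p = 0.0061). Lrpprc, which stabilises mitochondrial messenger RNA, was at 14.2, 14.1 and 16.1 FPKM in WT and 10.7, 11 and 11.9 FPKM in KO, and fell by 0.38 (SE 0.07, limma adjusted p = 0.0082). The row 1110008L16Rik, an older symbol for the nuclease subunit of mitochondrial RNase P, which cuts tRNAs out of the long transcripts, was at 3.51, 3.68 and 2.80 FPKM in WT and 2.04, 1.58 and 2.28 FPKM in KO, and fell by 0.55 (SE 0.13, limma adjusted p = 0.015). Its adjusted p was 0.061 without WT replicate 1 and 0.055 without WT replicate 2, and 0.052 with the acinar covariate. Ssbp1, which binds single-stranded mitochondrial DNA, fell by 0.23 (limma adjusted p = 0.019), with an adjusted p of 0.076, 0.059 and 0.067 without WT replicates 1, 2 and 3. It was 0.064 with the acinar covariate and 0.054 in KO replicate 1 alone.

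Of 11 regulators of mitochondrial biogenesis 9 were tested, 5 rose and 0 fell, with a median of 0.41, beside 20.3% of all tested genes that rose. The 5 were Nrf1, Gabpb1, Myc, Pprc1 and Gabpa. The 4 others tested were Ppargc1a, Tfam, Yy1 and Esrra, with differences of 0.77, 0.15, 0.06 and -0.08. The groups overlapped for Ppargc1a. Ppargc1b and Mycn were under the filter. Ppargc1b was at 0.317, 0.554 and 0.417 FPKM in WT and lower, at 0.221, 0.207 and 0.257 FPKM, in KO. Mycn had means of 0.21 FPKM in WT and 0.289 FPKM in KO. Without a filter all 11 were tested, 4 rose and 0 fell, with a median of 0.25. The median was 0.23 with 3 genes called under the acinar covariate, 0.18 with 3 called in KO replicate 1 alone and 0.30 with 2 called with equal sums. Leaving out WT replicate 1, WT replicate 3 or KO replicate 3 gave 3 calls each. Nrf1, which binds promoters of nuclear genes for mitochondria, was at 5.90, 5.96 and 6.59 FPKM in WT and 8.21, 8.72 and 8.67 FPKM in KO, and rose by 0.42 (SE 0.07, limma adjusted p = 0.0041). Gabpb1, the beta subunit of GABP, was at 7.56, 8.50 and 7.19 FPKM in WT and 10.8, 11.6 and 13.6 FPKM in KO, and rose by 0.57 (SE 0.10, limma adjusted p = 0.0055). Myc was at 2.37, 2.60 and 2.88 FPKM in WT and 6.38, 17.7 and 17.1 FPKM in KO, and rose by 1.91 (SE 0.34, limma adjusted p = 0.0063). KO replicate 1 had the lowest KO value of each of these 3 genes, most clearly for Myc, and was above all WT libraries in each. Pprc1, a coactivator of NRF1, rose by 0.41 (limma adjusted p = 0.022), with an adjusted p from 0.055 to 0.086 without WT replicates 1, 2 or 3 or KO replicates 2 or 3. It differed by 0.23 with the acinar covariate (adjusted p = 0.1 in limma) and by 0.18 in KO replicate 1 alone (0.19). With sums outside the acinar markers made equal, Nrf1 and Pprc1 had adjusted p of 0.062 and 0.063.

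Of 86 genes taken by the symbol prefixes of nuclear-encoded subunits of the respiratory chain and ATP synthase, 82 were tested. Of these, 10 fell (12.2%) and 0 rose, with a median of -0.10, beside 39.9% called and 19.6% lower over all tested genes. The prefixes brought in Cox4nb, Atp5s and Atp5sl, so the list is not limited to subunits, and Atp5s was among the 10 that fell. The number that fell was 3 with the acinar covariate, 5 with equal sums and in KO replicate 1 alone, and it was 1, 4 and 6 when WT replicate 1, WT replicate 3 and KO replicate 2 were left out in turn. Ndufb3, a complex I subunit, was at 75.8, 71.8 and 71.9 FPKM in WT and 57.9, 58.0 and 62.1 FPKM in KO, and fell by 0.30 (SE 0.06, limma adjusted p = 0.0079). Sdhc, which anchors complex II in the membrane, was at 83.6, 81.5 and 87.2 FPKM in WT and 73.3, 63.3 and 65.1 FPKM in KO, and fell by 0.32 (SE 0.07, limma adjusted p = 0.013). Without WT replicate 1 or WT replicate 3, Sdhc had an adjusted p of 0.053 or 0.059. It differed by -0.23 with the acinar covariate (0.061) and by -0.19 in KO replicate 1 alone (0.069), and had 0.054 with equal sums. Ndufs7, another complex I subunit, fell by 0.27 (limma adjusted p = 0.01; 0.052 without WT replicate 1). Ndufa4l2, a relative of a complex IV subunit that hypoxia induces, was at 3.61, 3.04 and 3.35 FPKM in WT and 1.78, 1.54 and 0.614 FPKM in KO, and fell by 0.94 (SE 0.20, limma adjusted p = 0.012, and 0.05 without WT replicate 1). With the acinar covariate Ndufa4l2 differed by -0.64 (adjusted p = 0.051). Proteins of the cytosolic ribosome, in contrast, lay mostly above 0. Of 83 rows, taken by symbol and with Rps19bp1 among them, 80 were tested, 76 were above 0 and the median was 0.20. But 2 passed, Rps15a and Rps19, both higher (2.5%, beside 39.9% of all tested genes). The KO libraries varied more for these genes, with a median coefficient of variation of 14.2% against 2.1% in WT. Rps19 was at 246, 242 and 236 FPKM in WT and 265, 324 and 361 FPKM in KO, so its level was nearest to WT in KO replicate 1, the KO library with the lowest acinar level. Neither Rps15a nor Rps19 passed without WT replicate 1, 2 or 3 or KO replicate 2 or 3 (adjusted p from 0.077 to 0.13 in limma). In KO replicate 1 alone the median difference of these 80 genes was 0.02, with 0 called in either direction, and 0.03 when the acinar level entered the fit. Without KO replicate 1, 50 rose and 1 fell. No test compared the cytosolic with the mitochondrial ribosomal proteins.

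**Figure D4:**
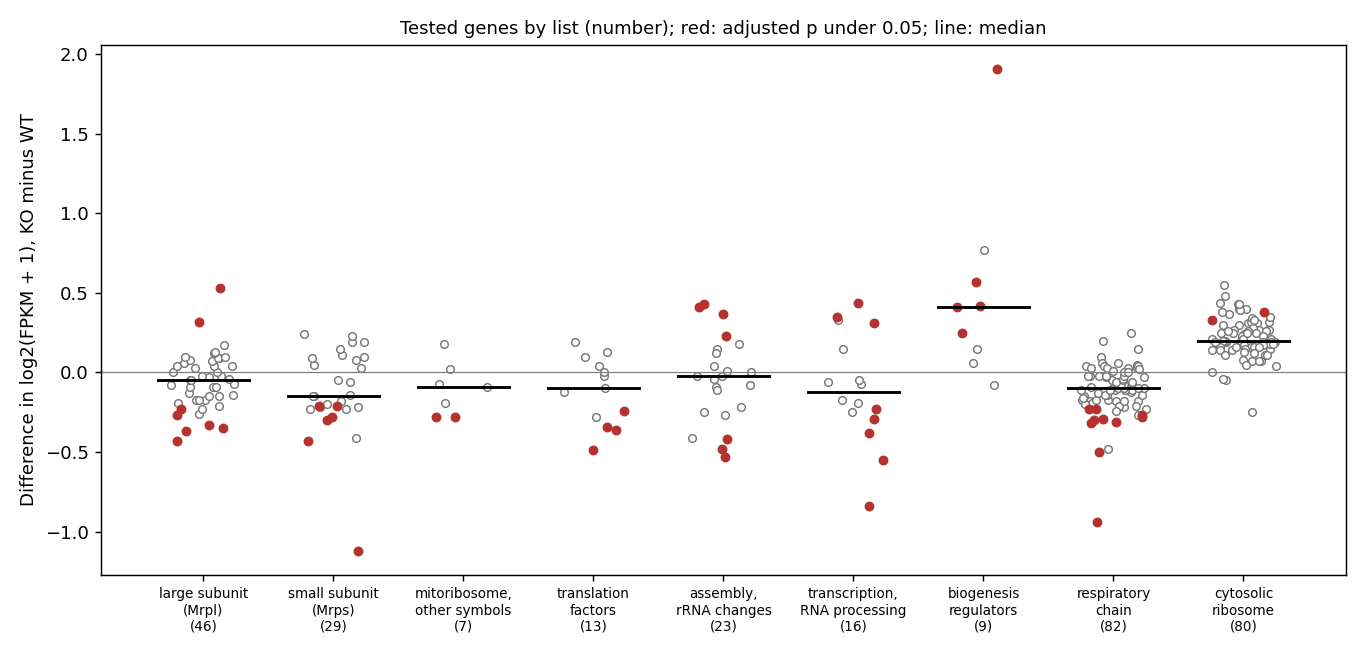
Differences in log2(FPKM + 1), KO minus WT, of the tested genes of each list (points, 1 per gene; red, adjusted p under 0.05; black line, median; number of genes in parentheses). The medians of both mitochondrial ribosomal subunits lie just below 0, at -0.05 and -0.15, while that of the cytosolic ribosomal proteins is 0.20 and that of the biogenesis regulators is 0.41.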

How the data were processed

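For the authors' tables, the submitters' processing notes name TopHat2 2.0.8b, Cuffdiff 2.1.1 and the build mm10. Annotation, strand setting and the method of scaling across libraries: not given in the sources used here. Factors that would set the median ratio of genes between libraries equal ranged from 0.995 to 1. The summed FPKM ranged from 416935 to 1056344. The deposited values were thus already on a common median ratio, and the alternative that applies these factors changes them little. Values deposited by the authors were read as FPKM, which is what Cuffdiff writes; the files name no unit. They were used as deposited, so total depth is unknown, and no count model was possible. From the steps of values under 0.06 FPKM, fragments per FPKM were 100, 108 and 114% of those of WT replicate 1 in the WT libraries and 119, 89.4 and 59.4% in the KO libraries, so KO replicate 3 was the least precise; its step was read from 55 of 368 low rows.

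Groups came from the titles and genotype labels. The 11669 genes whose mean reached 1 FPKM were fitted in limma 3.58.1 (R 4.3.3) as log2(FPKM + 1) with genotype as the sole term and a trended prior, leaving 4 residual degrees of freedom. Two-sided p-values were adjusted over all 11669 by Benjamini-Hochberg, at a threshold of 0.05. This scale understates changes of genes with low values. With 3 libraries per group, p-values measure only the spread between these pools. On simulated data with 200 of the 11669 genes changed, in 5 runs, recovery was 53.4% for changes of 0.5 log2 and 87.2% for changes of 1. False calls made up 4.48%. The simulated noise was independent between genes and held no shared acinar difference, and 4657 genes were called in the real data. These rates therefore do not carry over to the reported fit.

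Genes named with values were the 10 largest rises and falls that passed without overlap between groups, the 3 most abundant per subunit, members of each structural group and list that passed (up to 4), and those on chromosome 7. Other members named with values are said to be chosen after the values were seen. The genes, the lists and the rule were chosen with earlier results of these data known. A few further genes are given from the annotation's neighbours. Positions and transcripts came from GENCODE M21 on GRCm38, and promoter sequences from RefSeq on GRCm38.p6. Mrpl53 shares a row with Ccdc142 and was not matched by the rule. Alternatives covered pseudocount, filter, scaling, variance model, acinar level, replicate block and each left-out library.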

Additional observations from a re-analysis of the deposited data

How the results depend on the processing

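Mrps12, Mrps33 and Mrpl36 were called lower in all 17 alternatives, Mrps12 with differences of -1.24 to -1.0. Sars2 was also called lower in all of them, with adjusted p up to 0.042. With sums outside the acinar markers made equal, which moved the median of all genes by -0.10, 2715 genes and 10 of the 75 passed, 1 of them higher (large subunit); the medians were -0.18 for the 75, -0.16 for the large and -0.26 for the small subunit. With quantile normalization 24 passed and 22 fell, 13 of them small-subunit genes (median -0.19). Without a filter, or with a minimum mean of 5 FPKM, 1 rose (large subunit), and with array weights 1 small-subunit gene rose. With the acinar level as a covariate, 2694 genes passed; with KO replicate 1 alone against WT, 3041. In each of these fits 7 of the 75 passed, 7 lower (3 small-subunit) and 0 higher (0 large-subunit), and the small-subunit median was -0.08 with KO replicate 1 alone; that fit assumes that the lone library varies like the WT libraries.

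Leaving out each library gave 2481 to 5727 genes called in all and 5 to 27 of the 75 (5 without WT replicate 1, 6 without WT replicate 3, 8 without KO replicate 2 and 27 without KO replicate 1). Of these, 0 to 6 rose and 5 to 21 fell: 0 to 4 and 3 to 13 in the large subunit, 0 to 2 and 2 to 8 in the small. The medians were -0.11 to -0.03, -0.08 to -0.03 (large) and -0.16 to -0.12 (small). With the replicate number as a block, 3865 genes and 15 of the 75 passed, 13 lower and 2 higher, of which 12 were shared; the block ended the calls of Mrpl11 (adjusted p = 0.053) and Mrps25 (0.091). Same-numbered libraries deviated from their group means with correlations of -0.21, -0.09 and 0.03. With 3 libraries per group, and KO libraries that differ in acinar content, these values cannot show whether the numbers pair the samples.

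No gene of the 75 that passed changed sign under these alternatives. Of the others, 29 did so under at least 1 alternative, 19 of them with equal sums, 9 with the covariate and 12 with KO replicate 1 alone. Among those named by rule, Mrpl20 was at -0.08 with equal sums, -0.04 with the covariate, -0.01 with KO replicate 1 alone and -0.07 without KO replicate 3. Mrpl33 was at 0.07 and 0.12, and Mrpl46 at 0.01 and 0.03, with the covariate and with KO replicate 1 alone. Mrps18a was at -0.02 with equal sums, a scaling that moves the median of all genes down. Beyond what the construction of each fit shows, the cause was not tested.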
